A study of Homo sapiens with 6 samples.

Results

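The kinesin motor genes were followed in RNA sequencing libraries of UMUC3 cells, an established human bladder cancer line. All rows of the count table whose symbol was KIF with a number, or KIFC1, KIFC2, KIFC3, KIFAP3, KIFBP or CENPE, were taken, leaving out pseudogenes and antisense genes. This gave 45 of the 60605 rows. Of these, 15 were placed in a mitotic group, 15 in a transport group and 15 in a group of other kinesins and motor-less partners, by their known roles. The cells had been infected with the vector pLVX-IRES-ZsGreen carrying TIM-1 (3 libraries) or with the same vector without TIM-1 (3 libraries, called empty vector). pLVX is a lentiviral vector and ZsGreen a green fluorescent protein, so both groups received virus and reporter. TIM-1, encoded by HAVCR1, is a phosphatidylserine receptor of the cell surface. The labels give no time after infection, no promoter and no statement on whether clones or mixed cells were used. The title of the study ties TIM-1 to proliferation, and mitotic kinesins are made mainly by dividing cells.

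Kinesins are motor proteins that use ATP to walk along microtubules or to take their ends apart. One set builds and moves the mitotic spindle, pulls chromosomes into place and organises the final cut between daughter cells. Another set carries vesicles, endosomes, mitochondria and ciliary cargo through the cytoplasm. RNAs of the mitotic set are known to peak in G2 and M phase. Their promoters are held off in G1 by the DREAM complex and switched on later by B-MYB and FOXM1, often through a short element called CHR next to CCAAT boxes bound by NF-Y.

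The 3 values of a group are listed in the order of replicates 1, 2 and 3. The targeted gene matched its labels, with 7069, 9824 and 11479 counts of HAVCR1 in the TIM-1 libraries, against 4, 0 and 0 in the empty-vector libraries. Total counts lay between 14312387 and 18605914 per library. The labels do not say that replicates are separate cultures, so p-values reflect only library-to-library spread, possibly technical. Fits with a level for each replicate number leave the spread between numbers out of their p-values. Both replicate 1 libraries differed from the other 4, and the TIM-1 calls are therefore given with and without them. Of 12 urothelial and epithelial markers 4 passed the low-count filter, with KRT18 at 343 CPM and KRT8 at 45.8 CPM in TIM-1 libraries, against 409 and 43.9 CPM in empty-vector libraries. The other 2, PPARG and GATA3, averaged 8.08 and 0.801 CPM in TIM-1 libraries, against 5.25 and 1.92 CPM in empty-vector libraries. EPCAM and UPK3A had 0 counts in every library, and VIM, a mesenchymal marker, averaged 1639 CPM in TIM-1 and 1818 CPM in empty-vector libraries. CPM (counts scaled to library size) were adjusted by the trimmed mean of M values (TMM). None of 4 markers of blood, endothelial or fibroblast cells passed the filter.

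Of the 45 kinesin genes 40 passed the low-count filter, 13 mitotic, 15 transport and 12 others. The 5 below it were KIF2B, KIF4B, KIF6, KIF19 and KIF21B. KIF2B, a testis-biased depolymerase, had 0 counts in every library, which allows up to 0.207 CPM in the shallowest and 0.162 CPM in the deepest library. KIF4B, an intronless copy of KIF4A, had 9, 7 and 2 counts in TIM-1 libraries, against 7, 11 and 4 in empty-vector libraries, and reads of near-identical copies may be split or left out. KIF6 had 0 counts in all 3 TIM-1 libraries and 8, 2 and 0 in the empty-vector libraries, too few for a test. KIF21B had at most 3 counts and KIF19 at most 2 in any library.

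Levels between genes were compared as CPM per kilobase of exon. KIF20A, the motor that carries the chromosomal passenger complex to the spindle midzone, was the most abundant kinesin, at 92.3 ± 24.9 CPM per kb in TIM-1 libraries and 79.9 ± 28.8 in empty-vector libraries (SD, n = 3 each). KIF5B, the widely expressed heavy chain of conventional kinesin, came next at 60.8 ± 9.43 CPM per kb in TIM-1 and 65.9 ± 12.1 in empty-vector libraries. KIF2C, a depolymerase of kinetochore microtubules, stood at 48.2 ± 10.1 CPM per kb in TIM-1 and 46.8 ± 8.17 in empty-vector libraries. KIFC1, the minus-end motor that focuses spindle poles and clusters extra centrosomes, stood at 40.7 ± 3.21 CPM per kb in TIM-1 and 40.9 ± 5.01 in empty-vector libraries. From KIF2C through KIFC1, KIF11 and KIF4A to KIF23, averages over all libraries ran from 47.5 to 33.7 CPM per kb, and each step was smaller than the SD of its higher gene in either group. Among transport kinesins KIF5B was followed by KIF1C at 28.9 and KIFC2 at 16.9 CPM per kb over all libraries. The neuronal motors KIF1A, KIF5C and KIF17, with KIF13B, lay below 1 CPM per kb, between 0.437 and 0.734. Of the others KIFBP, which binds kinesin motor domains and keeps them off microtubules, was highest at 16.8 CPM per kb.

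**Figure D1:**
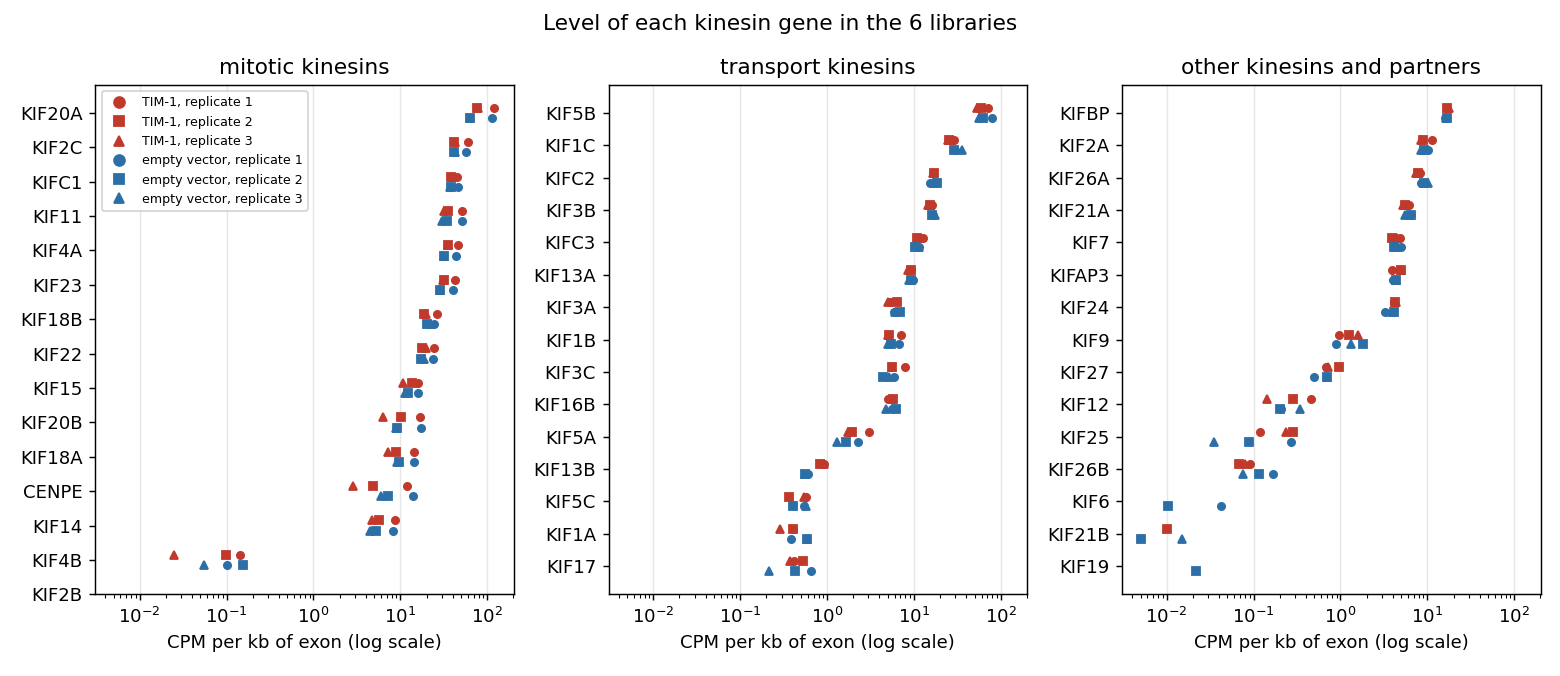
Level of every kinesin gene in CPM per kilobase of exon (log axis, libraries with 0 counts not drawn), 1 panel per group and 1 mark per library, red for TIM-1 and blue for empty vector, with the marker shape giving the replicate. KIF20A leads the mitotic panel at 86.1 and KIF5B the transport panel at 63.3 CPM per kb over all libraries, and replicate 1 circles sit to the right in most mitotic rows.

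Most promoters of the mitotic group held short motifs that the choice of members had not used. The motifs were searched for because of their known role in G2 and M phase genes, so their frequency here is a description. RefSeq promoter windows (GRCh38.p14, 250 bases before and 50 after the gene start) matched 37 of the 45 genes, 15 mitotic, 11 transport and 11 others. TTTGAA, the usual CHR sequence, was present on either strand in 10 of 15 mitotic windows (66.7%), in 1 of 11 transport windows (9.09%) and in 0 of 11 others. Of all 27305 genes with a RefSeq window, 18.2% held it, and over the 10426 of them with a tested symbol 13.3%. CCAAT was present on either strand in 11 of 15 mitotic windows (73.3%) and 4 of 11 transport windows (36.4%), against 39.7% of all genes. Over genes with a tested symbol its share was 43.3%. Both motifs occurred together in 9 of 15 mitotic windows, in 7.26% of all genes and in 5.53% of those with a tested symbol. A match is a description of the letters, not a binding site, and where a gene had several windows any of them counted. The 100 bases before the start are printed for 6 mitotic and 2 transport genes to show this arrangement, 5′ to 3′ on the strand of the gene. Capitals mark TTTGAA and CCAAT or their reverse complements, TTCAAA and ATTGG. They lie at chr10:92593030-92593129 on the plus strand for KIF11, chr15:69414249-69414348 (plus) for KIF23, chrX:70290004-70290103 (plus) for KIF4A and chr11:28108157-28108256 (minus) for KIF18A. KIF20A is shown at chr5:138179012-138179111 (plus), CENPE at chr4:103198344-103198443 (minus), KIF5B at chr10:32056426-32056525 (minus) and KIF1C at chr17:4997850-4997949 (plus).
KIF11: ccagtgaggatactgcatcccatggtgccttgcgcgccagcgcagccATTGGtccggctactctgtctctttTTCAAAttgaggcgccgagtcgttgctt
KIF23: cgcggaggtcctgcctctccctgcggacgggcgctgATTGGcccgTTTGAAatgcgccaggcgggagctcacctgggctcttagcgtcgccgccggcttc
KIF4A: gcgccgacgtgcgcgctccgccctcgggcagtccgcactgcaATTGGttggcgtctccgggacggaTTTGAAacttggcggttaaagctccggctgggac
KIF18A: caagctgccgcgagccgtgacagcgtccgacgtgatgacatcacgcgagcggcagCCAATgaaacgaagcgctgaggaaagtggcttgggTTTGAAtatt
KIF20A: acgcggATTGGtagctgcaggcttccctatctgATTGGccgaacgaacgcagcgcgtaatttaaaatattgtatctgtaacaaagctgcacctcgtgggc
CENPE: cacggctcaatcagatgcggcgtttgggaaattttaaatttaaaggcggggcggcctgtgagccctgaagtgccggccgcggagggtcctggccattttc
KIF5B: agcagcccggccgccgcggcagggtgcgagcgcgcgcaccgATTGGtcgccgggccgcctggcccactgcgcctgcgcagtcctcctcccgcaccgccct
KIF1C: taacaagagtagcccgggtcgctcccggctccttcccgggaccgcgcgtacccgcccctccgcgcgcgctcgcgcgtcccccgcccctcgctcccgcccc
In KIF11, KIF23, KIF4A and KIF18A a CCAAT box stood upstream of a TTTGAA element, which began 28, 55, 34 and 10 bases before the start. KIF20A held a pair of CCAAT boxes and no TTTGAA in its window, and CENPE, KIF2C and KIF2B held neither motif. The 1 transport gene with TTTGAA was KIF5B, where it lay 140 bases upstream of the start and outside the stretch printed.

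With TIM-1, none of the 40 tested kinesin genes passed the unpaired edgeR quasi-likelihood test, in which 0.0138% of 14479 genes were called higher and 0.0% lower. At an unadjusted p under 0.05 there were 4 (KIF13B, KIF1C, KIF26A and KIF1A), where 5.49% of all tested genes reached that level. DESeq2 without pairing also called 0 of them. It was run without the low-count filter, and of its 28529 genes it called 0.0841% higher and 0.00351% lower. The tested mitotic kinesins had a median log2 fold change of 0.04, with a range from -0.48 to 0.21. The tested transport kinesins had a median of -0.02, with a range from -0.52 to 0.63, and the median of all tested genes was -0.00075. In bulk RNA, fewer dividing cells and less RNA per dividing cell cannot be told apart.

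Taking same-numbered libraries as pairs, 4 of 40 kinesin genes passed (10%), against 5.01% of all tested genes. KIF20A and KIF13B rose (2 of 40, against 3.22% of all genes called higher), and CENPE and KIF1C fell (2 of 40, against 1.79% called lower). Each group thus held 1 gene that rose and 1 that fell, 2 of 13 mitotic and 2 of 15 transport kinesins. The mitotic median was 0.04 and the transport median -0.01 on the log2 scale. Within pairs 1, 2 and 3 the mitotic medians were 0.06, 0.05 and 0.07, and the transport medians 0.05, -0.08 and -0.03. Higher in all 3 pairs were 12 of 40 kinesins and lower in all 3 pairs 8, together 50%, against 20.1%, 19.1% and 39.2% of all tested genes. By group these were 7 higher and 1 lower of 13 mitotic kinesins, and 3 higher and 5 lower of 15 transport kinesins. Of the 12 others 2 were higher and 2 lower. This difference between the groups was not tested. Of the 4 tested urothelial and epithelial markers 3 passed with pairing (75%), PPARG higher at 0.62, and KRT18 and GATA3 lower at -0.24 and -1.25 on the log2 scale. Without pairing 0 of the 4 passed, and their part in the kinesin values was not tested. With pairing in DESeq2, 0 of 40 kinesins passed, where 0.459% of 28529 genes, taken without the low-count filter, were called higher and 0.273% lower. A term for replicate 1 alone gave 2 higher and 0 lower (2.4% and 1.12% of all genes), and the pairing with GC correction 3 higher and 3 lower (4.73% and 4.32%). Leaving out both replicate 1 libraries, without pairing, gave 1 higher (KIF20A) and 1 lower (KIF1C), against 1.2% and 0.563% of all genes. The labels do not say that equal numbers mark a shared culture or day.

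**Figure D2:**
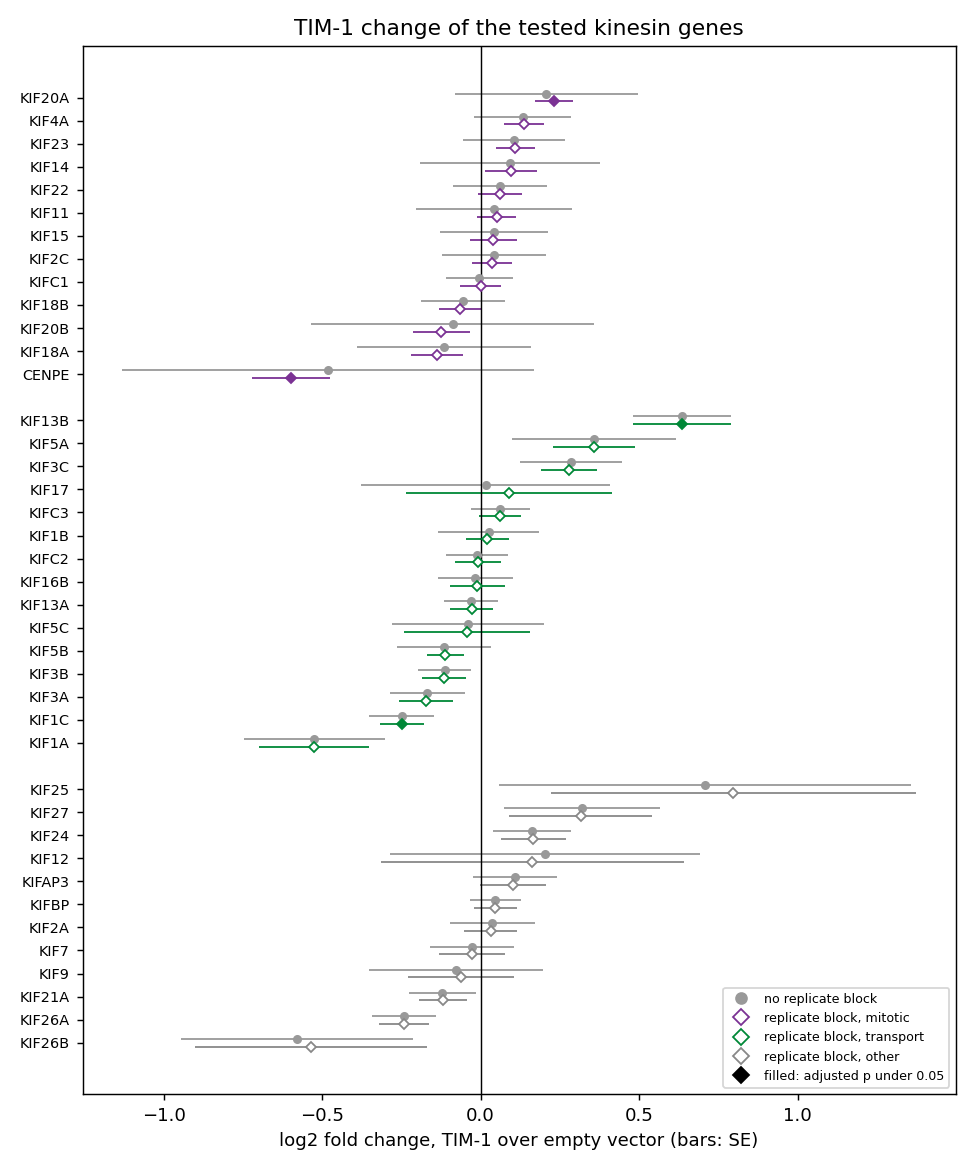
Log2 fold change of the 40 tested kinesin genes, TIM-1 over empty vector, with SE bars, in the mitotic (top), transport and other groups. Grey circles come from the fit without the replicate block and diamonds from the fit with it, and the 4 filled diamonds are KIF20A, CENPE, KIF13B and KIF1C.

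CENPE, the kinetochore motor that brings stray chromosomes to the metaphase plate, fell with TIM-1 in the paired test. Its level was 113, 45.5 and 27.0 CPM in the TIM-1 libraries, against 133, 68.1 and 56.2 CPM in the empty-vector libraries. It was lower in each pair, but the groups overlapped, since both replicate 1 libraries lay far above the other 4. Pairing gave a log2 fold change of -0.60 (SE 0.12, edgeR adjusted p = 0.0189), the unpaired fit -0.48 (SE 0.65, edgeR adjusted p = 0.942). The log2 ratio within pairs 1, 2 and 3 was -0.24, -0.58 and -1.06. The paired call was kept without each pair in turn, at -0.81, -0.62 and -0.40 without pairs 1, 2 and 3. The edgeR adjusted p was then 1.1e-06, 1.2e-05 and 0.00011, each smaller than the 0.0189 from all 3 pairs. Why fewer pairs gave a smaller p was not tested, and these values are no measure of a steadier change. The call was lost with a correction for GC content (log2 fold change -0.58, edgeR adjusted p = 0.380) and in DESeq2 (-0.63, adjusted p = 0.224). A term for replicate 1 alone also lost it (-0.58, edgeR adjusted p = 0.393). Without both replicate 1 libraries, the fit without pairing gave -0.79 (edgeR adjusted p = 0.151). Unpaired, the log2 fold change lay between -1.25 (without TIM-1 replicate 1) and -0.02 (without empty-vector replicate 1).

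KIF20A rose with TIM-1 in the paired test. Its level was 479, 305 and 312 CPM in the TIM-1 libraries, against 448, 253 and 248 CPM in the empty-vector libraries. TIM-1 replicates 2 and 3 lay above empty-vector replicates 2 and 3, but below empty-vector replicate 1, so the groups overlapped. Pairing gave a log2 fold change of 0.23 (SE 0.06, edgeR adjusted p = 0.0145), the unpaired fit 0.21 (SE 0.29, edgeR adjusted p = 0.942). Without both replicate 1 libraries and without pairing, the log2 change was 0.30 (edgeR adjusted p = 0.0492). Pairing no longer gave a call without the replicate 2 pair (edgeR adjusted p = 0.321), without the replicate 3 pair (0.0935) and in DESeq2 (adjusted p = 0.0710), at log2 fold changes of 0.21, 0.18 and 0.22. Of its exon bases 3.34% overlap BRD8 and 1.72% overlap CDC23 on the other strand, and whether reads were counted by strand is not known here.

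KIF11, the tetrameric motor that slides spindle poles apart, held 250, 172 and 156 CPM in the TIM-1 libraries, against 249, 167 and 146 CPM in the empty-vector libraries. The groups overlapped almost fully, with a paired log2 fold change of 0.05 (SE 0.06, edgeR adjusted p = 0.730). KIF2C had 218, 153 and 156 CPM in TIM-1 libraries, against 205, 153 and 154 CPM in empty-vector libraries. KIFC1 had 149, 129 and 131 CPM in TIM-1 libraries, against 156, 129 and 125 CPM in empty-vector libraries. Their paired log2 fold changes were 0.04 and 0.00011, each smaller than its SE of 0.06. The other 8 tested mitotic kinesins had paired log2 fold changes between -0.14 for KIF18A and 0.14 for KIF4A, and none passed. KIF18A dampens chromosome oscillation at metaphase and KIF4A is a chromokinesin that also shapes the central spindle. KIF23, the centralspindlin motor of cytokinesis, stood at 0.11, and KIF14, which works with citron kinase in cytokinesis, at 0.10. KIF15, a backup motor for spindle assembly, stood at 0.04, the chromokinesin KIF22 at 0.06, KIF18B at -0.06 and KIF20B at -0.12.

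KIF13B, a vesicle motor that binds the scaffold DLG1, rose with TIM-1 in the paired test and was the only tested kinesin higher in every TIM-1 library than in every empty-vector library. Its counts were 149, 149 and 190 in the TIM-1 libraries, against 108, 100 and 103 in the empty-vector libraries. The levels were 10.3, 9.22 and 10.3 CPM in TIM-1 libraries, against 6.77, 6.18 and 6.21 CPM in empty-vector libraries. The paired log2 change was 0.63 (SE 0.15, edgeR adjusted p = 0.00736), a factor of 1.55. The unpaired one was 0.63 (SE 0.15, edgeR adjusted p = 0.575). Replicate 1 did not differ from the others by more than its SE, at 0.10 (SE 0.16). Pairing no longer gave a call without the replicate 2 pair (edgeR adjusted p = 0.0766), without the replicate 3 pair (0.0558) and in DESeq2 (adjusted p = 0.221), with the log2 fold change between 0.59 and 0.66 without each pair in turn. Unpaired and without both replicate 1 libraries it was 0.65 (edgeR adjusted p = 0.0775).

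KIF1C, which moves vesicles and RNAs toward cell protrusions, fell with TIM-1 in the paired test. Its level was 251, 216 and 213 CPM in the TIM-1 libraries, against 254, 251 and 303 CPM in the empty-vector libraries. TIM-1 replicate 1 stood level with empty-vector replicate 2, so the groups overlapped there, and the within-pair log2 ratios were -0.02, -0.22 and -0.51. Pairing gave a log2 fold change of -0.25 (SE 0.07, edgeR adjusted p = 0.0245), the unpaired fit -0.25 (SE 0.10, edgeR adjusted p = 0.880). Pairing no longer gave a call without the replicate 2 pair (edgeR adjusted p = 0.171, log2 fold change -0.26), without the replicate 3 pair (0.452, log2 fold change -0.11), in DESeq2 (adjusted p = 0.151) and with a term for replicate 1 alone (edgeR adjusted p = 0.0806), both at -0.25. Without both replicate 1 libraries and without pairing it was -0.37 (edgeR adjusted p = 0.0450).

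**Figure D3:**
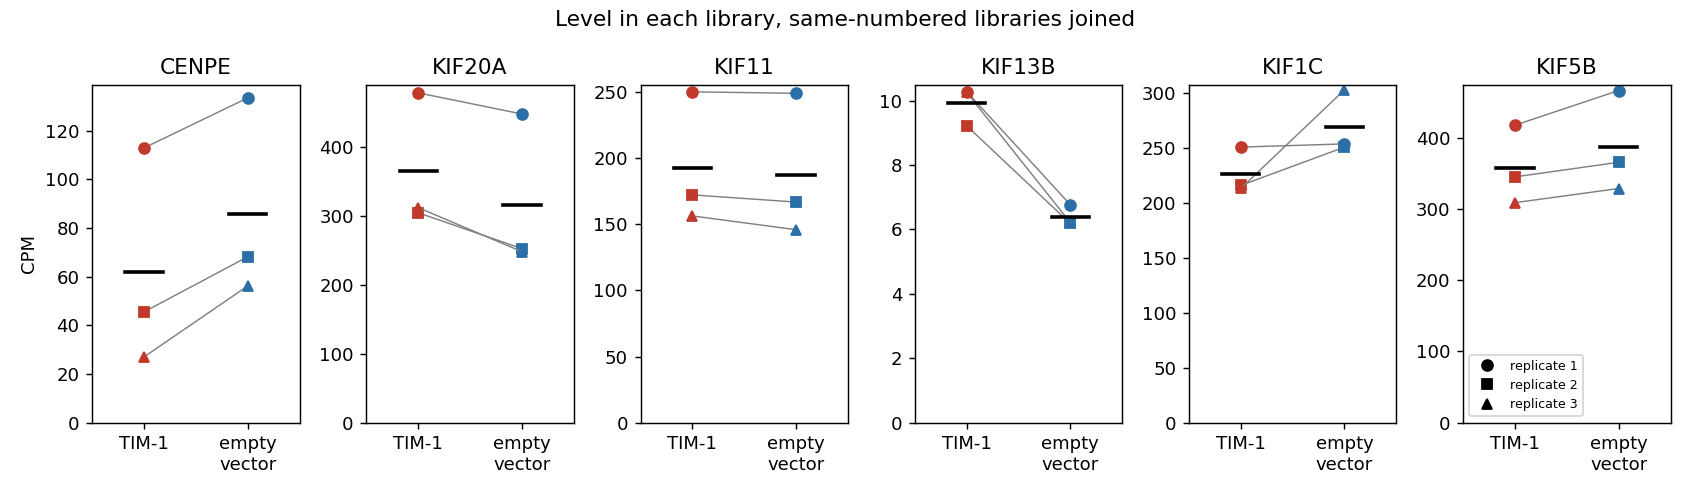
CPM of CENPE, KIF20A, KIF11, KIF13B, KIF1C and KIF5B in each library, TIM-1 at left and empty vector at right, with same-numbered libraries joined and group means as black bars. CENPE is lower at the TIM-1 end of every line, at different heights, while for KIF13B all 3 TIM-1 values (9.22 to 10.3 CPM) lie above all 3 empty-vector values (6.18 to 6.77 CPM).

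The remaining transport kinesins did not pass. KIF5B had 418, 345 and 309 CPM in TIM-1 libraries, against 467, 366 and 329 CPM in empty-vector libraries, lower in each pair by a paired log2 fold change of -0.11 (SE 0.06, edgeR adjusted p = 0.309). KIF1A, a carrier of synaptic vesicle precursors, had a paired log2 fold change of -0.52 (SE 0.17, edgeR adjusted p = 0.0652) at 6.76, 6.81 and 4.86 CPM in TIM-1 libraries, against 6.51, 9.96 and 9.95 CPM in empty-vector libraries. TIM-1 replicates 1 and 2 lay above empty-vector replicate 1 there. KIF3C, a kinesin-2 motor, stood at 0.28 (SE 0.09, edgeR adjusted p = 0.0537) and KIF5A, a neuronal conventional kinesin, at 0.36 (SE 0.13, edgeR adjusted p = 0.0980). KIF3C had 50.3, 35.8 and 35.6 CPM in TIM-1 libraries, against 38.1, 28.4 and 33.2 CPM in empty-vector libraries. KIF3A, the kinesin-2 motor of ciliary transport, stood at -0.17 (SE 0.09, edgeR adjusted p = 0.266), and its partner subunits KIF3B and KIFAP3 at -0.11 and 0.10. KIFC2, a minus-end motor, stood at -0.0084. Of the exon bases of KIFC2 17.8% overlap FOXH1 on the other strand, which had at most 3 counts in any library. The endosome motors KIF13A and KIF16B stood at -0.03 and -0.01, and KIF1B, a carrier of mitochondria and vesicles, at 0.02. KIFC3, a minus-end motor at cell junctions, stood at 0.06, and the low neuronal KIF5C and KIF17 at -0.04 and 0.09.

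Of the 12 other tested genes none passed. KIF26A, an atypical kinesin without motor activity, was the only tested kinesin lower in every TIM-1 library (55.3, 52.5 and 50.2 CPM) than in every empty-vector library (56.9, 61.5 and 68.5 CPM). Its paired log2 change was -0.24 (SE 0.08, edgeR adjusted p = 0.0609). With KIF13B this made 2 of 40 kinesins (5%) whose groups did not overlap, 1 higher and 1 lower, against 11.7% of all tested genes (6.6% higher and 5.06% lower). KIF26B, its relative, had 19, 16 and 21 counts in TIM-1 libraries, against 38, 27 and 18 in empty-vector libraries, and a paired log2 fold change of -0.53 (SE 0.37, edgeR adjusted p = 0.465). KIF21A, a cortical microtubule growth inhibitor, stood at -0.12, KIF7, a Hedgehog regulator at the cilium tip, at -0.03 and KIFBP at 0.05. KIF2A, KIF9, KIF12, KIF24 and KIF27 stood at 0.03, -0.06, 0.16, 0.17 and 0.32, with edgeR adjusted p between 0.401 and 0.905. KIF25 had the largest paired log2 fold change of the tested kinesins, 0.80 (SE 0.58), from counts of 6, 16 and 15 in TIM-1 libraries, against 15, 5 and 2 in empty-vector libraries.

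Replicate 1 libraries held more RNA of the mitotic kinesins than replicates 2 and 3, with and without TIM-1. In a fit that also held the TIM-1 group, all 13 tested mitotic kinesins were higher in replicate 1 (edgeR quasi-likelihood test), where 13.2% of all tested genes were called higher and 13.2% lower. Of 15 transport kinesins 4 were higher (26.7%) and 0 lower, and of the 12 others KIF2A was higher and KIF9 lower. The median log2 difference was 0.46 over the tested mitotic kinesins, 0.10 over the transport kinesins and -0.0046 over all tested genes. The median GC content was 42.3% for the tested mitotic and 51.4% for the transport kinesins. For all 13 mitotic kinesins both replicate 1 libraries lay above the other 4, as for 4 of 15 transport kinesins and for 19.2% of all tested genes. Summed over the group, mitotic kinesins came to 484 and 469 CPM per kb in TIM-1 and empty-vector replicate 1, against 314 to 341 in the other 4 libraries. Transport kinesins came to 186 and 190 CPM per kb in TIM-1 and empty-vector replicate 1, against 154 to 172 in the others. Replicate 1 was set against the others because earlier results of these data showed it apart, and the labels do not say what a replicate number marks. Each replicate number had its own level in this fit, so its p-values do not measure the spread between replicates 2 and 3. A term for replicate 1 alone, which keeps that spread, gave 18 kinesin genes higher and 1 lower, the same numbers.

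CENPE had the largest difference, at 113 CPM in TIM-1 replicate 1 and 133 CPM in empty-vector replicate 1, against 27.0 to 68.1 CPM in the other 4 libraries. This was a log2 difference of 1.39 (SE 0.12, edgeR adjusted p = 8.11e-06), a factor of 2.62. With a term for replicate 1 alone it was 1.37 (SE 0.27, edgeR adjusted p = 0.0379). With a correction for GC content it was 1.36 (edgeR adjusted p = 0.0604), and CENPE has a GC content of 35.3%. KIF20B, a cytokinesis motor with a GC content of 34.2%, followed at 0.99 (edgeR adjusted p = 8.02e-09). It held 116 and 118 CPM in TIM-1 and empty-vector replicate 1, against 43.1 to 69.5 CPM in the others. KIF14 stood at 0.75, KIF20A at 0.74, KIF18A at 0.72 and KIF11 at 0.64, with GC contents of 38.3%, 48.4%, 37.0% and 38.3%. The smallest differences were those of KIFC1 at 0.24 (edgeR adjusted p = 0.00539) and of KIF18B, an astral microtubule depolymerase, at 0.33 (edgeR adjusted p = 0.000367). Their GC contents were 57.9% and 58.4%. The others, KIF2C, KIF23, KIF4A, KIF15 and KIF22, stood at 0.46, 0.45, 0.43, 0.42 and 0.39. For these the GC contents were 50.4%, 42.3%, 46.4%, 41.2% and 58.9%. KIFC1 lost its call without TIM-1 replicate 2 (edgeR adjusted p = 0.0641), empty-vector replicate 1 (0.138) or empty-vector replicate 2 (0.0611). KIF18B lost its call without TIM-1 replicate 1 (0.0968). The 11 remaining mitotic kinesins kept theirs without each library in turn, and 12 of 13, all but CENPE, with the GC correction. The 4 with no TTTGAA in the promoter window, CENPE, KIF20A, KIF2C and KIF22, stood at 1.39, 0.74, 0.46 and 0.39, and the 9 tested ones with it between 0.24 and 0.99.

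**Figure D4:**
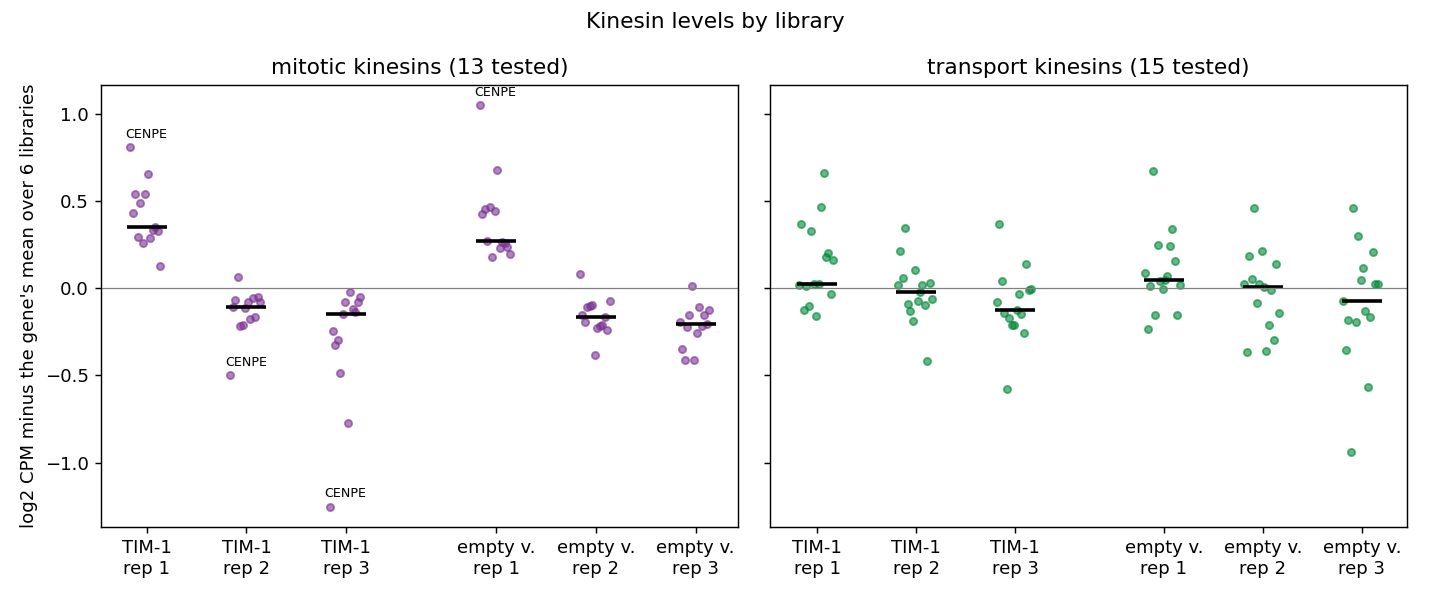
Log2 CPM of each tested mitotic (left) and transport (right) kinesin minus its mean over the 6 libraries, 1 point per gene, TIM-1 libraries first, with black bars for the median. Mitotic medians are 0.35 in TIM-1 replicate 1 and 0.27 in empty-vector replicate 1, and between -0.21 and -0.11 in the other 4 libraries, while transport medians stay between -0.13 and 0.05.

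The transport kinesins higher in replicate 1 were KIF5A, KIF1B, KIF3C and KIF5B, at 0.68, 0.43, 0.40 and 0.39 on the log2 scale. KIF5B held 418 and 467 CPM in TIM-1 and empty-vector replicate 1, against 309 to 366 CPM in the other 4 libraries. KIF3C lost its call without TIM-1 replicate 1 (edgeR adjusted p = 0.0620). KIF2A, a depolymerase that works at spindle poles and in neurons, was counted among the others and not in the mitotic group, despite its spindle role. It stood at 0.30 (edgeR adjusted p = 0.00618). Of its exon bases 8.97% overlap IPO11 on the same strand. Its call was lost without TIM-1 replicate 1 (0.193) and without TIM-1 replicate 2 (0.0818). KIF9, a motor of motile cilia, stood at -0.69 (edgeR adjusted p = 0.00359), with 14.9% of its exon bases overlapping KIF9-AS1 on the other strand. Its call was lost without replicate 1 (0.124) or replicate 2 (0.116) of the empty vector.

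**Figure D5:**
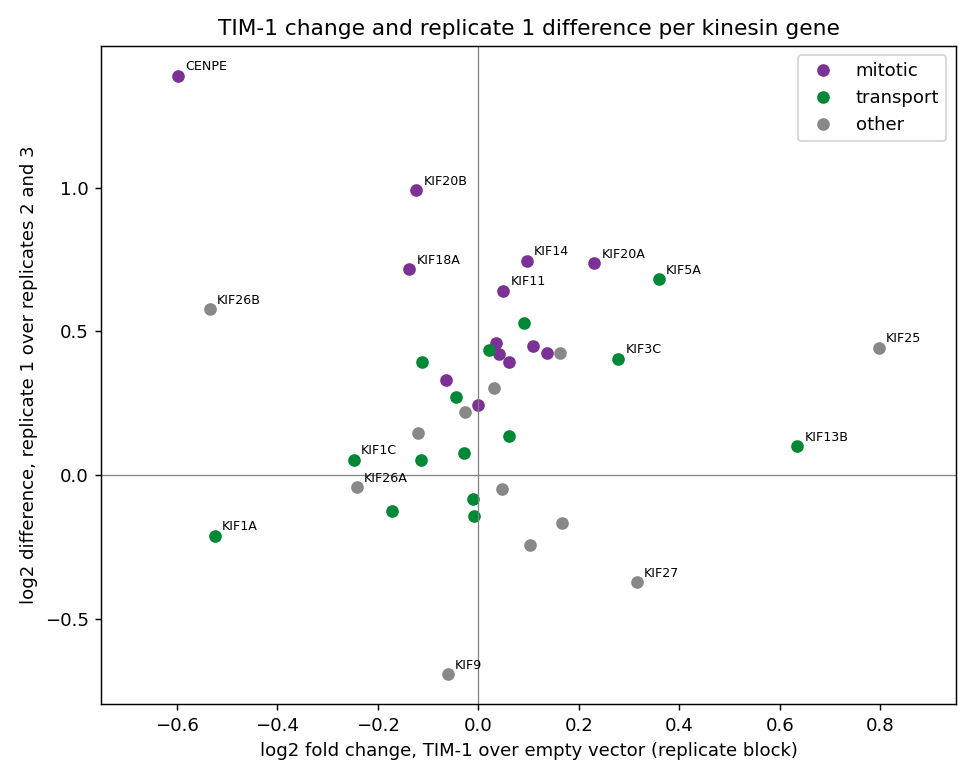
Each tested kinesin gene by its paired log2 fold change with TIM-1 (x axis) and its log2 difference between replicate 1 and replicates 2 and 3 (y axis), coloured by group. Mitotic kinesins lie above 0 on the y axis, from 0.24 to 1.39, and between -0.14 and 0.23 on the x axis apart from CENPE at -0.60.

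Partners of the mitotic kinesins were also higher in replicate 1. Of 19 mitotic partners and regulators 17 were tested, and with TIM-1 0 passed with or without pairing, with a paired median of 0.02. In replicate 1, 15 of the 17 were higher and 0 lower (88.2%, against 13.2% of all tested genes called higher), with a median log2 difference of 0.51. The spindle gene ASPM stood at 1.27, PLK1, whose kinase phosphorylates KIF20A, at 0.81, and CIT, which encodes the citron kinase bound by KIF14, at 0.74. AURKB and CENPF were the exceptions, at 0.0026 and 0.98 (edgeR adjusted p = 0.985 and 0.146). PRC1 and NUSAP1, the 2 not tested, averaged 0.231 and 0.335 CPM in TIM-1 libraries, and 0.226 and 0.328 CPM in empty-vector libraries. Whether reads of PRC1 and NUSAP1 were left out in counting was not checked, so these values are not read as their true level. Of 8 proliferation genes CCNA2, MKI67 and TOP2A were higher in replicate 1, at 0.61, 0.60 and 0.53, and CCNE2, the cyclin of S phase entry, was lower, at -0.54. PCNA, MCM2 and MCM6, genes of DNA replication, stood at 0.09, -0.04 and -0.04. Of those 8, CCND1 fell with TIM-1 in the paired test, by 0.19 (log2, edgeR adjusted p = 0.0442), where 1.79% of all tested genes were called lower. It did not pass without pairing (edgeR adjusted p = 0.829), with a term for replicate 1 alone (0.0692) or unpaired without both replicate 1 libraries (0.112). In DESeq2 with pairing its adjusted p was 0.0855, and without each pair in turn edgeR gave 0.0522 to 0.406. KRT18 and VIM were lower in replicate 1, at -0.51 and -0.29 on the log2 scale. Whether the share of cells in G2 and M phase differed between replicate 1 and the others was not tested.

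Of 10 regulators of G2 and M phase genes 0 were called higher or lower in replicate 1, against 13.2% of all tested genes each way, and their log2 differences ranged from -0.88 to 0.16. With TIM-1 and pairing, 2 of the 10 passed (20%), 1 higher and 1 lower, and the others did not. Over all tested genes 3.22% were called higher and 1.79% lower in that fit. FOXM1, an activator of mitotic kinesin genes, fell by 0.22 (SE 0.06, edgeR adjusted p = 0.0346). It averaged 167 ± 13.8 CPM in TIM-1 libraries and 194 ± 13.8 CPM in empty-vector libraries (SD, n = 3 each). RBL2, which encodes the p130 subunit of DREAM, rose by 0.36 (SE 0.08, edgeR adjusted p = 0.00187), averaging 60.4 ± 3.75 CPM in TIM-1 and 47.1 ± 5.76 CPM in empty-vector libraries (SD, n = 3 each). Neither passed without pairing (edgeR adjusted p = 0.887 for FOXM1 and 0.697 for RBL2). With pairing FOXM1 was also lost with a term for replicate 1 alone (edgeR adjusted p = 0.0800) and in DESeq2 (adjusted p = 0.163), at log2 fold changes of -0.22 in each. It was lost as well without the replicate 2 pair (edgeR adjusted p = 0.325) and without the replicate 3 pair (0.316). RBL2 kept its call in each of these paired fits. Unpaired and without both replicate 1 libraries, neither passed (edgeR adjusted p = 0.0949 for FOXM1 and 0.0833 for RBL2).

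Of 18 cargo adaptors and light chains of transport kinesins 16 were tested, and 0 passed with TIM-1 with or without pairing. Without both replicate 1 libraries and without pairing, 0 were higher and 2 of 16 lower, against 1.2% and 0.563% of all tested genes. The 2 were MAPK8IP1 at -0.60 and MAPK8IP2 at -0.46 on the log2 scale. Pairing with GC correction called 0 higher and 3 of 16 lower, against 4.73% and 4.32% of all genes. The 3 were those 2 and the light chain gene KLC1. In replicate 1, 18.8% of the list were higher and 0 lower, against 13.2% of all tested genes each way. MAPK8IP3 and RAB11FIP5 were among those higher in replicate 1, at 0.46 and 0.23 on the log2 scale. The adaptor SPAG9, the most abundant of them in CPM, had a paired log2 fold change of -0.0089 and MAP7D1, which recruits conventional kinesin to microtubules, of -0.10. Of 22 tested dynein and dynactin genes, which form the motor of opposite direction, 0 passed with TIM-1, and 4 were higher (18.2%) and 3 lower (13.6%) in replicate 1. Of 10 tested tubulin genes 1 fell with TIM-1 in the paired test (10%), against 1.79% of all tested genes called lower. This was TUBB2A, lower by 0.34 (log2, edgeR adjusted p = 0.0309). In replicate 1, 3 of the 10 were higher (30%) and 0 lower. TUBB2A did not pass without pairing (edgeR adjusted p = 0.740), with a term for replicate 1 alone (0.0537), without the replicate 2 pair (0.350) or replicate 3 pair (0.152), or unpaired without both replicate 1 libraries (0.0850). In DESeq2 with pairing its adjusted p was 0.297.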

How the data were processed

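RNA sequencing counts per gene of 6 UMUC3 libraries, 3 with TIM-1 and 3 with the empty vector, were analysed as the authors deposited them, as whole-number counts not normalized. The submitters' processing notes name HISAT2 2.0.5, featureCounts 1.5.0-p3, DESeq2 1.16.1 and hg38. For the annotation release and the strand setting, the sources used here give nothing. Exon lengths, GC content and overlaps came from GENCODE 29, which held 58337 of 60605 rows and all 45 kinesin genes.

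Genes were kept with edgeR's filterByExpr at a minimum count of 10, leaving 14479, which held at least 99.8% of each library's counts. The main test was edgeR 4.0.16 (quasi-likelihood, robust, TMM; R 4.3.3) of TIM-1 against empty vector without pairing, at a Benjamini-Hochberg adjusted p of 0.05. The labels give both groups the same replicate numbers. Deviations from the group means correlated at 0.53, 0.23 and 0.26 between same-numbered libraries, so values from a fit with the replicate number as a block are given beside. Across numbers 2 and 3 the correlations were 0.26 and 0.19, close to those of the same number, and between replicate 1 and the others -0.40 to -0.32. The biological coefficient of variation was 14.2% without and 6.67% with the block. Replicate 1 was set against the mean of replicates 2 and 3 in a fit with a level for each replicate number and the group as a term. Replicates of a group differed by 4.16 to 27.5 chi-square units per degree of freedom, above sampling noise. DESeq2 1.42.0, other size factors, no filter, GC correction (loess, span 0.3) and leaving out libraries were alternatives. The limit for a count of 0 is 3 counts and covers counting error only.

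The members, gene lists and the replicate 1 contrast were chosen with earlier results of these data known. Genes described in detail were CENPE, KIF20A and KIF11, the 8 with the smallest p in the unpaired and in the paired fit, those called in either, and the 3 of highest level per length in the mitotic and transport groups. Other genes were named as examples after their values were seen.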

Additional observations from a re-analysis of the deposited data

How the results depend on the processing

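None of the 40 tested kinesin genes passed with TIM-1 in the fit without pairing, nor with DESeq2, other size factors, no low-count filter or leaving out any 1 library. The replicate block, which pairs same-numbered libraries, gave 2 higher and 2 lower, with GC correction 3 higher (KIF3C added) and 3 lower (KIF26A and KIF1A in place of CENPE). Without 1 pair, the block gave 0 to 2 higher and 1 to 4 lower. The shares of all genes called in these fits were not computed, so these counts cannot be set against them. A term for replicate 1 gave 2 higher and 0 lower, and leaving out both replicate 1 libraries without pairing gave 1 higher and 1 lower. The replicate 1 settings and the GC correction of the replicate 1 contrast were chosen after seeing the data. Leaving out 1 library in turn, unpaired log2 fold changes crossed 0 for 24 of the 40 tested kinesin genes, among them 6 of the 15 described in detail, KIF11 (-0.19 to 0.30), KIF20A (-0.037 to 0.54), KIF2C (-0.14 to 0.19), KIF5B (-0.24 to 0.037), KIFC1 (-0.071 to 0.098) and KIFC2 (-0.090 to 0.055). KIFC1, at -0.0040 unpaired, turned to 0.00011 with the replicate block, 0.031 and 0.00090 with the block without replicates 1 and 2, 1.2e-05 with the replicate 1 term and 0.031 without replicate 1. KIFC2 turned to 0.041 and 0.0051 with the block without replicates 2 and 3. The number of kinesin genes lower in replicate 1, which was 1, became 0 with DESeq2, 2 with GC correction and 0 to 2 without 1 library each. The replicate 1 contrast cannot also be blocked by replicate number, since the number is what it compares. Over all genes the block called 466 higher and 259 lower, and 679 and 620 with GC correction, against 2 and 0 without it. The cause of these shifts was not tested. With 3 libraries a group the unpaired fit left 4 residual degrees of freedom and the block 2, and genes with under 20 counts a library, such as KIF25, give wide errors.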
